A study of Mus musculus with 24 samples.

Results

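The comparison described here set all 8 neural progenitor cell (NPC) libraries from huntingtin knock-in lines against the 4 NPC libraries from the wild-type (WT) and knockout (KO) lines. Its members were taken from the column names of the NPC expression table, and no measured value entered the choice. They were 12 of the 24 RNA sequencing libraries of the series, and the other 12 came from mouse embryonic stem cells (mESC) of the same 6 genotypes. The knock-in class held the Q20, Q50, Q92 and Q111 lines with 2 libraries each, and the control class held WT and KO with 2 libraries each.

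The knock-in lines were heterozygous mESC lines in which an Htt allele, also called Hdh, carried 20, 50, 92 or 111 CAG repeats. The sample titles gave 92 for the third length and the growth protocol gave 89. The stem cells had been kept with leukemia inhibitory factor on irradiated mouse embryonic fibroblasts. They were turned into NPC in N2B27 medium and then passaged on laminin with FGF and EGF. The labels named an allelic series as the source of the knock-in lines alone and gave no origin for the WT and KO lines. Each genotype was 1 line, so the clone, its origin and the knock-in class cannot be told apart. The series text calls the 2 samples of a condition biological samples, with nothing on separate cultures or differentiations, and p-values between libraries therefore measure the spread between these samples.

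Huntingtin is a large scaffold protein that binds vesicles, motor adaptors and transcriptional regulators. Its first exon carries the CAG tract whose expansion causes Huntington disease in people, and the tract is read as glutamine. Knock-in alleles place a repeat of set length into the mouse gene under its own promoter. NPC of this kind are adherent, dividing cells that express radial glia genes and can give neurons and glia once growth factors are withdrawn.

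The site changed by the knock-in lies at the start of Htt (ENSMUSG00000029104), which spans chr5:34761740-34912534 on the plus strand of GRCm38 and has 67 exons in GENCODE M21. In the reference, the tract covers chr5:34761958-34761978 in exon 1, bases 52 to 72 of the coding sequence, with 6 CAG codons and 1 CAA codon. The first 120 coding bases, chr5:34761907-34762026, are shown because the 4 knock-in alleles differ by label only in this tract, which is in capitals.
Htt, reference allele: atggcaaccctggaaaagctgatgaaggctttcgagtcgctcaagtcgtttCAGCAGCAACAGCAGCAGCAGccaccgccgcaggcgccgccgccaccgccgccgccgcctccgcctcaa
The gene-level values used here do not separate the alleles and hold no repeat length.

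Values are a normalised CPM (counts scaled to library size by the authors), and changes are differences of log2(CPM + 1) between the mean of the 4 knock-in line means and the mean of WT and KO. Htt was measured at 137 and 177 CPM in WT and at 100 and 94.9 CPM in KO. In the knock-in libraries it was 157 and 155 CPM in Q20, 182 and 173 in Q50, 184 and 168 in Q92, and 137 and 150 in Q111. The 2 KO libraries were the lowest, and the WT libraries lay within the knock-in range. The labels do not say which part of Htt the KO line lacks, so reads from the rest of the gene check nothing of the protein. The class change was 0.40 (SE 0.08, limma adjusted p = 0.0183). Against WT alone it was 0.06 (limma adjusted p = 0.793) and against KO alone 0.73 (limma adjusted p = 0.00469), and the limma test among the 4 knock-in lines gave an adjusted p of 0.223. The call for Htt therefore rested on the KO line, without which the change was 0.06 (limma adjusted p = 0.785). Of 104 tested genes within 5 Mb of Htt, 5 were called higher and 4 lower, 8.65% against 13.1% of all genes tested. None was without overlap of the classes, against 1.82% of all genes, and their median change was -0.06.

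The NPC libraries held 48525333 to 118038952 reads recovered from the deposited values, and the 10 most abundant genes took 4.26% to 6.07% of them. The spread of replicate differences over genes, as an SD on the log2 scale, was 0.869 in WT and 0.689 in KO against 0.486 to 0.535 in the knock-in lines. Markers of NPC were present: 11 of 12 were tested, with Sox2 not analysed here, and none was called. Their summed level was 5672 to 8142 CPM in WT and KO and 4096 to 9451 CPM in the knock-in libraries. Nes, which encodes nestin, had a class change of 0.03 (SE 0.25, limma adjusted p = 0.948), and Pax6, a radial glia transcription factor, one of -0.49 (SE 0.16, limma adjusted p = 0.0825). Fabp7, a radial glia lipid-binding protein, was at 1569 to 3371 CPM in WT and KO and at 1194 to 3921 CPM in the knock-in libraries. Vim had a change of 0.26, Msi1 0.29, Sox9 0.13, Slc1a3 -0.49 and Olig2 -1.07, and none of these passed. Sox1 (0.11) and Hes5 (-0.44) varied within lines, with Sox1 at 19.3 and 0 CPM in the Q50 libraries. Leaving out WT replicate 2 brought Pax6 (-0.68), Vim (0.35) and Slc1a3 (-0.64) past the limma threshold, and leaving out KO replicate 2 did so for Fabp7 (-0.62) and Slc1a3 (-0.70). Over all 32 alternatives, Pax6, Fabp7 and Olig2 gained a call in 1 each, Vim in 2 and Slc1a3 in 4. In bulk samples, fewer cells of a type and less RNA per cell cannot be told apart.

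Of 13206 genes tested with limma on 6 line means, 1733 (13.1%) were called, meaning that the p adjusted by Benjamini-Hochberg was under 0.05. Of these, 1010 (7.65% of genes tested) were higher and 723 (5.47%) lower in the knock-in class. This balance turned at a mean CPM of at least 5 and by edgeR, where more genes were lower than higher (counts in the closing section). The median change over all genes was 0.02, and 440 of the called genes changed by at least 1 in size. Leaving out WT replicate 2 raised the count to 3475, and a weight per library (array weights) lowered it to 656. The class takes only 1 of the 5 degrees of freedom between lines and held 17.5% of the between-line sum of squares. With 1 mean per line, 4 lines against 2, limma called 0 genes (0.0%), with 439 genes (3.32%) at an unadjusted p under 0.05, and the smallest adjusted p was 0.0789, for Mageb16. The calls therefore speak of these 6 lines and not of knock-in lines at large. Among the 4 knock-in lines, 5414 genes (41.0%) differed by the F test of the same limma fit, and these included 1372, or 79.2%, of the 1733 called genes.

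In 240 genes (1.82%) the 8 knock-in libraries did not overlap the 4 WT and KO libraries, 119 of them higher (0.901%) and 121 lower (0.916%). Of the 240, 226 were also called, 114 higher and 112 lower, with a median size of change of 0.88. In 120 of these 226 genes the knock-in lines did not pass the test for a difference among themselves. Over all genes tested, 41.0% passed that test, so a missed threshold was common and not particular to the 226. In 178 of the 226 the mean of the higher class reached 5 CPM, and among these the gap between the nearest libraries of both classes was at least 1 on the log2 scale in 6 genes, 4 higher and 2 lower. Below that mean, Fst (gap 1.06, higher) and Pdgfd (1.12, lower) also had such a gap. The 12 protein-coding genes of each direction with the largest gaps among the 178 are described first. The last of them had gaps of 0.61 (Lrrc7, higher) and 0.40 (Ldlrad4, lower), and the genes just outside had 0.60 and 0.38. The gap chose these genes, so their separation is a description.

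**Figure D1:**
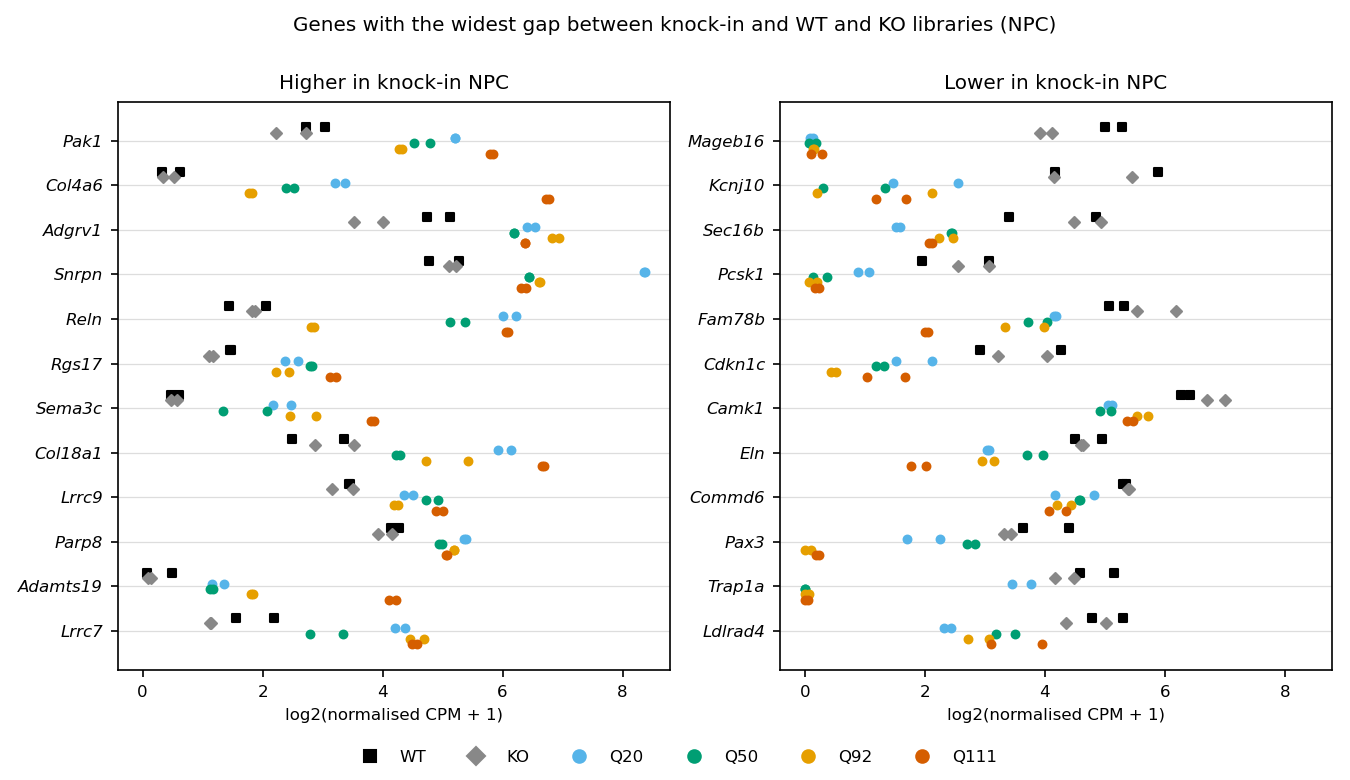
Level of the 24 genes with the largest gap between the classes among those whose mean reached 5 CPM in the higher class, as log2(CPM + 1) on the horizontal axis, with 1 point per NPC library coloured by line. In each row the 8 knock-in points lie all above or all below the 4 WT and KO points; Mageb16 has the widest gap, 3.64.

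The lower genes were led by a pair of X-linked genes of the kind usually read in germ cells and tumours. Mageb16 (ENSMUSG00000046942, chrX:79623231-79671435, minus strand) belongs to the MAGE family, and Trap1a (ENSMUSG00000051257, chrX:139333683-139338169, plus strand) encodes the P1A tumour antigen. Their promoters are shown because these genes were near or at 0 in most knock-in libraries. The bases are the 250 before the RefSeq start on GRCm38.p6, chrX:79671436-79671685 for Mageb16 (minus strand) and chrX:139333433-139333682 for Trap1a (plus strand), with each CG, the dinucleotide that can carry DNA methylation, in capitals.
Mageb16: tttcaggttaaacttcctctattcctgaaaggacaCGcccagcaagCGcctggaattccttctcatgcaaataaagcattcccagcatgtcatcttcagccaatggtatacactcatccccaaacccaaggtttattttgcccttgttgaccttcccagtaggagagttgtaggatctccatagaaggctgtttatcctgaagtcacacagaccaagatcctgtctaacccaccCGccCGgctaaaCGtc
Trap1a: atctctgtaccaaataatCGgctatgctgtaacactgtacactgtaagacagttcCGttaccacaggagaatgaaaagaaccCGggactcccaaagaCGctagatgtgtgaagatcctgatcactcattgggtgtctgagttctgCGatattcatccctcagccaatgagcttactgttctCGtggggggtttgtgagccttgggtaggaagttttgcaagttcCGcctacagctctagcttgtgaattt
Mageb16 holds 5 and Trap1a 7 such sites, which read the same on both strands. The median over 32851 RefSeq windows of that length was 6, and 92.1% of windows hold at least 1. No methylation was measured in this series.

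Mageb16 was at 38.3 and 31.1 CPM in WT and at 14.2 and 16.3 CPM in KO. The 8 knock-in libraries ran from 0.047 to 0.217 CPM with a median of 0.0992. In reads, that is 1443 to 2533 in the WT and KO libraries against 4 to 16 in the knock-in libraries. The class change was -4.44 (SE 0.10, limma adjusted p = 3.41e-07), and the knock-in lines did not pass the test among themselves (limma adjusted p = 0.974). All 4 knock-in lines were thus nearly without this transcript.

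Trap1a was at 23.1 and 34.6 CPM in WT and at 17.1 and 21.5 CPM in KO. In Q20 it was 9.91 and 12.6 CPM, and in the other 6 knock-in libraries it ran from 0 to 0.0469 CPM. The class change was -3.69 (SE 0.14, limma adjusted p = 5.84e-06). Q20 was lower than every WT and KO library and yet far above the other knock-in lines, and Trap1a differed among the knock-in lines (limma adjusted p = 2.09e-05).

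Kcnj10, the glial inward rectifier potassium channel Kir4.1, was at 58.4 and 16.9 CPM in WT and 16.9 and 43.0 CPM in KO. The knock-in libraries ran from 0.156 to 4.88 CPM with a median of 1.66. Its change was -3.56 (SE 0.50, limma adjusted p = 0.00263), with a wide spread between the 2 libraries of a line in both classes. Pcsk1, a protease that matures prohormones, was at 2.89 and 7.40 CPM in WT, 4.86 and 7.39 CPM in KO, and 0.0469 to 1.09 CPM in the knock-in libraries, median 0.166 (change -2.27, SE 0.20, limma adjusted p = 0.000253). Sec16b, a protein of endoplasmic reticulum exit sites, had 9.55 and 27.8 CPM in WT, 21.4 and 29.8 CPM in KO and 1.85 to 4.54 CPM, median 3.52, in the knock-in libraries (change -2.31, SE 0.25, limma adjusted p = 0.000697). None of Kcnj10, Pcsk1 and Sec16b passed the test among the knock-in lines. Kcnj10, Sec16b, Fam78b and Pax3 lie on chromosome 1, whose genes were low as a group in Q20, Q92 and Q111. All 24 large-gap genes kept their call when the median of each chromosome was taken off every library. That alternative was chosen after seeing the data. The genes had been picked for wide gaps in these same libraries, so a kept call is no check of them. The part of the chromosome 1 shift in their changes was not tested.

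Cdkn1c, the imprinted cyclin-dependent kinase inhibitor p57, was at 18.3 and 6.62 CPM in WT, 15.5 and 8.32 CPM in KO and 0.36 to 3.33 CPM in the knock-in libraries, median 1.39 (change -2.39, SE 0.28, limma adjusted p = 0.00113). Camk1, a calcium- and calmodulin-dependent kinase, was at 76.5 and 84.5 CPM in WT, 127 and 103 CPM in KO and 29.4 to 51.7 CPM, median 37.2, in the knock-in libraries (change -1.31, SE 0.09). Eln, the precursor of elastin, was at 30.0 and 21.8 CPM in WT, 23.7 and 23.4 CPM in KO and 2.41 to 14.7 CPM, median 7.28, in the knock-in libraries (change -1.72, SE 0.13). Eln was lowest in Q111 and highest in Q50 among the knock-in lines, which differed (limma adjusted p = 0.0012). Commd6, a small COMM domain protein, had the tightest controls of the 12, at 38.7, 39.9, 41.5 and 41.1 CPM against 15.8 to 27.4 CPM (change -0.97, SE 0.14). Ldlrad4, a membrane protein that dampens TGF-beta signalling, was at 19.5 to 38.7 CPM in WT and KO and at 3.99 to 14.5 CPM in the knock-in libraries (change -1.83, SE 0.22). Fam78b was at 32.5 to 71.8 CPM in WT and KO, 9.15 to 17.3 CPM in Q20, Q50 and Q92, and 3.01 and 3.13 CPM in Q111 (change -2.09, SE 0.17). Pax3, a transcription factor of the dorsal neural tube and neural crest, was at 8.96 to 20.1 CPM in WT and KO. It was 2.27 to 6.14 CPM in Q20 and Q50 and at most 0.184 CPM in Q92 and Q111 (change -2.44, SE 0.17), so that the knock-in lines fell into different levels.

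Among the higher genes, Pak1 had the widest gap. It encodes a kinase that acts on the actin cytoskeleton downstream of Rac and Cdc42, and lies at chr7:97788541-97912381 on the plus strand. Pak1 was at 5.64 and 7.27 CPM in WT and 3.65 and 5.62 CPM in KO. It was 36.0 and 35.7 CPM in Q20, 22 and 26.7 in Q50, 18.4 and 19 in Q92 and 56.2 and 54.0 in Q111. Every knock-in library was thus well above the controls (change 2.31, SE 0.13, limma adjusted p = 3.19e-05), and the level did not follow the order of repeat lengths.

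Adgrv1, the very large adhesion G protein-coupled receptor whose loss causes hearing and vision defects, was at 33.8 and 25.6 CPM in WT and 15.1 and 10.5 CPM in KO. The knock-in libraries ran from 72.1 to 121 CPM with a median of 82.9 (change 2.13, SE 0.12, limma adjusted p = 2.91e-05). The knock-in lines did not pass the test for a difference among themselves (limma adjusted p = 0.0773). Parp8, a member of the PARP family of ADP-ribosyltransferases, was at 14.1 to 18.2 CPM in WT and KO and at 29.7 to 40.8 CPM, median 34.0, in the knock-in libraries (change 1.03, SE 0.09), likewise without a called difference among the knock-in lines.

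Reln, the secreted glycoprotein that guides neuronal layering, was at 3.17 and 1.72 CPM in WT and 2.65 and 2.56 CPM in KO. It was 63.6 and 73.8 CPM in Q20, 40.6 and 34.0 in Q50, 67.0 and 65.4 in Q111 and only 5.99 and 6.21 in Q92 (change 3.27, SE 0.14, limma adjusted p = 9.24e-06). Snrpn, an imprinted gene for a spliceosomal Sm protein of neurons, was at 26.3 to 37.9 CPM in WT and KO. Q20 had 327 and 330 CPM, and the other 6 knock-in libraries had 77.8 to 97.8 CPM (change 1.85, SE 0.10, limma adjusted p = 2.73e-05). Snurf, which shares its transcript with Snrpn and was picked after its values were seen, overlapped between the classes, at 0.626 to 2.68 CPM against 1.69 to 31.8 CPM. How reads were split between Snrpn and Snurf is not given in the sources used here.

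Col4a6, a chain of basement membrane collagen IV, was at 0.258 to 0.543 CPM in WT and KO and at 2.41 to 9.33 CPM in Q20, Q50 and Q92, and it reached 105 and 109 CPM in Q111 (change 3.12, SE 0.11, limma adjusted p = 3.75e-06). Col18a1, another basement membrane collagen, was at 4.62 to 10.5 CPM in WT and KO and at 17.6 to 102 CPM, median 50.9, in the knock-in libraries (change 2.45, SE 0.21). Adamts19, a secreted metalloprotease, ran from 0.0526 to 0.405 CPM in WT and KO and from 1.18 to 17.7 CPM in the knock-in libraries, with Q111 the highest (change 1.90, SE 0.10). The gap rule requires every knock-in line of these 3 genes of the extracellular matrix to lie above the controls. Among the 6 lines, Q111 was the highest in each.

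Sema3c, a secreted guidance cue, was at 0.385 to 0.515 CPM in WT and KO against 1.53 to 13.4 CPM, median 4.50 (change 2.10, SE 0.16). Rgs17, which shortens G protein signals, was at 1.16 to 1.79 CPM against 3.66 to 8.38 CPM, median 5.45 (change 1.39, SE 0.10). Lrrc7, which encodes densin of the postsynaptic density, was at 1.18 to 3.55 CPM against 5.92 to 24.9 CPM, median 20.3 (change 2.62, SE 0.16). Lrrc9 was at 7.90 to 10.4 CPM against 17.3 to 31.2 CPM, median 23.5 (change 1.22, SE 0.11). As the gap rule requires, every knock-in line was above both control lines in each of these 4 genes. Of the 24 genes, Col4a6, Adgrv1, Snrpn and Reln overlap another annotated gene on the same strand. Col18a1, Lrrc9, Lrrc7, Sec16b, Cdkn1c, Camk1, Eln, Trap1a and Ldlrad4 overlap one on the opposite strand. Reads from such pairs may not be told apart, since the use of strand in counting is not given in the sources used here.

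The gene lists are groups of known function or cell type, each described by how many tested members were called. They are read against 13.1% of all genes called (7.65% higher, 5.47% lower) and a median change over all genes of 0.02. Lists for cell division and metabolism lay near or under that share, and most of the 30 lists lay above it. Those above included fibroblasts, neurons, oligodendrocytes, Hox genes, imprinted genes and transmitter receptors. Neural crest, brain patterning, germline, endothelial and microglial, laminin and integrin, Wnt and pluripotency genes also lay above it. The lists were chosen with earlier results of these data known, so a share above that of all genes is not particular to any of them.

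**Figure D2:**
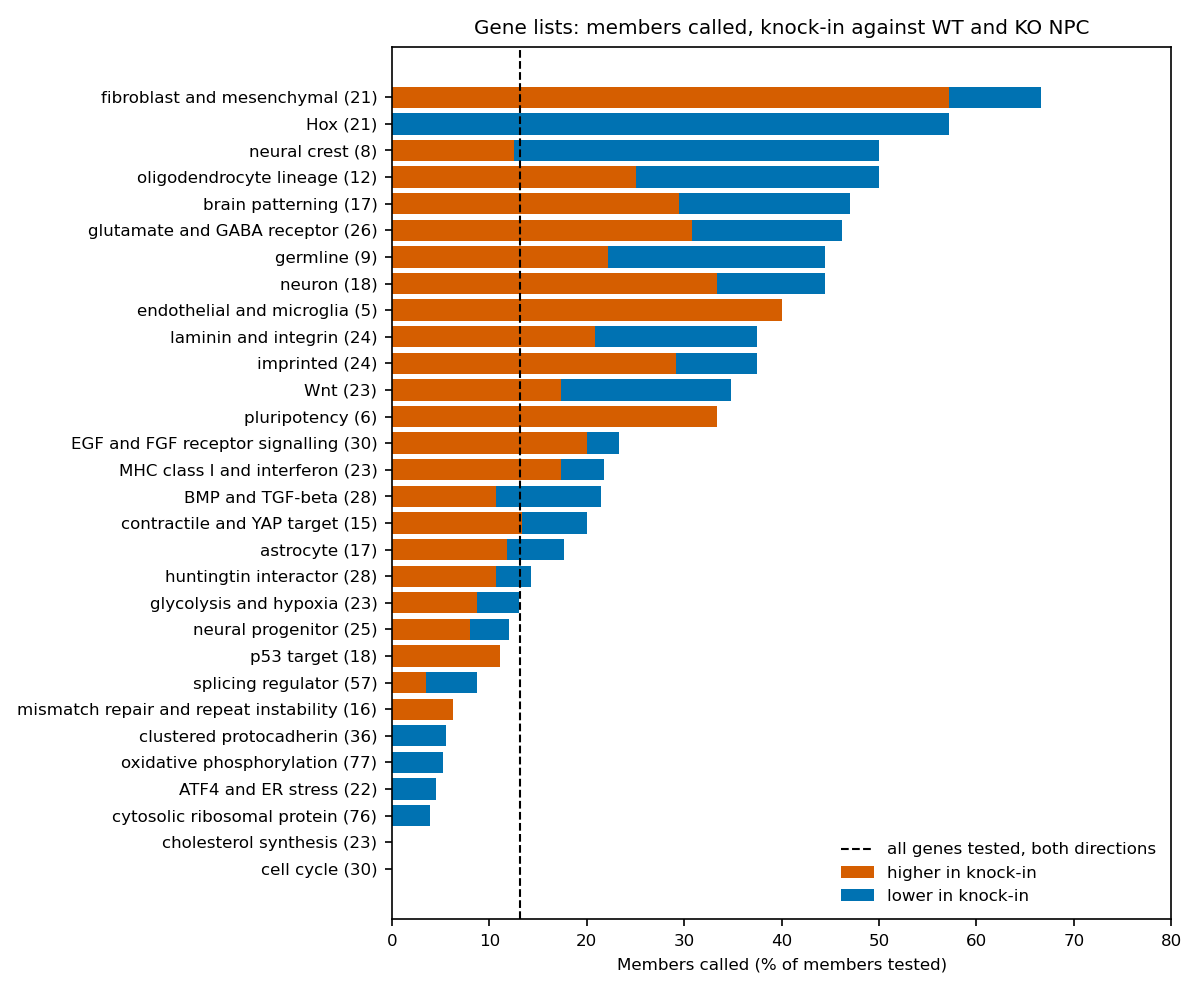
Percent of tested members called higher and lower in the knock-in class for each of the 30 gene lists, with the number tested beside the name. The dashed line marks 13.1%, the share of all genes tested; fibroblast and mesenchymal (66.7%) and Hox (57.1%) genes stand at the top, and cell cycle and cholesterol synthesis genes at 0.

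Of 25 neural progenitor genes tested, 2 were called higher and 1 lower, 12.0%, with a median change of -0.01. Nr2e1, the orphan receptor TLX of neural stem cells, was at 0.0245 to 0.158 CPM in WT and KO. It was at 4.32 to 5.60 CPM in Q50 and Q111 and at most 0.182 CPM in Q20 and Q92 (change 1.18, SE 0.08, limma adjusted p = 5.75e-05). Prom1, which encodes the stem cell surface protein prominin-1, was the other higher gene (0.38). Tnc, the matrix glycoprotein tenascin-C, was at 3189 to 6157 CPM in WT and KO. It was 646 and 702 CPM in Q20, 1522 and 1653 in Q111, 2549 and 3787 in Q50 and 5212 and 5244 in Q92 (change -1.16, SE 0.20, limma adjusted p = 0.00643). All 3 genes differed among the knock-in lines, and in each the classes overlapped. Tnc lost its call without the Q20 line (-0.62), and Nr2e1 by edgeR (1.27, adjusted p = 0.969).

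Neuronal genes were called more often, 6 higher and 2 lower of 18 (44.4%; median 0.44). Stmn2, a microtubule regulator of growing axons, was at 103 and 128 CPM in Q20, 5.51 and 5.24 CPM in Q111 and at most 0.356 CPM in every other library (change 2.25, SE 0.10, limma adjusted p = 1.04e-05). Nefl, the light neurofilament chain, had a class change of 2.06 (SE 0.31, limma adjusted p = 0.00367). It was at 17.8 to 32.8 CPM in Q20 and Q50 and at 6.88 and 7.41 CPM in Q111. Q92, at 0.594 and 0.891 CPM, lay within the 0.0876 to 4.69 CPM of WT and KO. By edgeR Nefl missed the threshold (2.43, adjusted p = 0.0504). The other higher genes were Nefm (1.23), Snap25 (0.61), Gad2 (0.54) and Syn1 (0.43). Map2 was lower by -0.78 and without overlap, at 1228 to 1593 CPM in WT and KO against 599 to 1030 CPM, and lies on chromosome 1. Gad1, an enzyme of GABA synthesis like Gad2, was lower (-0.82). The list median by line was 0.94 in Q20 and -0.23 in Q92, so the neuronal genes were high mainly in Q20. The 6 neuron markers summed to 186 and 315 CPM in Q20, against 21.7 to 34.6 CPM in WT and KO and 11.3 to 37.1 CPM in the other knock-in libraries.

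Astrocyte genes had 2 higher and 1 lower of 17 (17.6%; median -0.22). Gfap, the astrocyte intermediate filament, was at 27.8 to 72.9 CPM in Q20 and Q50, 0.0938 to 2.82 CPM in Q92 and Q111 and 0.773 to 4.30 CPM in WT and KO (change 1.81, SE 0.32, limma adjusted p = 0.00722). Aldoc, a brain aldolase, was at 844 to 1257 CPM in WT and KO, 839 to 1244 CPM in Q20 and Q50, at 322 to 324 CPM in Q92 and at 97.4 and 102 CPM in Q111 (change -1.30, SE 0.10, limma adjusted p = 0.000138). Aldh1l1 was the other higher gene (0.86). Gfap lost its call without the Q20 line (1.17) or the Q50 line (0.99) and by edgeR (1.48, adjusted p = 0.0997). Oligodendrocyte lineage genes split evenly, with 3 higher and 3 lower of 12 (50.0%). Cspg4 (-1.68, SE 0.14) and Pdgfra (-1.07), which mark precursors, were lower along with Bcas1 (-0.69). Pdgfra was at 60.6 to 264 CPM in WT and KO and at 95.6 to 203 CPM in Q20, Q50 and Q111. Only Q92, at 1.27 and 2.20 CPM, lay below the controls for Pdgfra. Cspg4 in Q111, at 39.0 and 39.9 CPM, lay within its WT and KO range of 32.9 to 92.1 CPM. Mbp (1.52, SE 0.15), Ugt8a (1.17) and Myrf (0.57), which belong to myelin formation, were higher. Mbp was at 20.7 to 47.6 CPM in Q20 and Q111 and at 0.156 to 1.30 CPM in Q50 and Q92, against 0.75 to 3.26 CPM in WT and KO.

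Fibroblast and mesenchymal genes had the largest share of calls, 12 higher and 2 lower of 21 (66.7%), with a median of 0.74. Col1a2, a chain of collagen I, was at 0.318 to 0.631 CPM in WT and KO. It was 33.1 and 25.4 CPM in Q20 and 153 and 159 CPM in Q50, and at most 0.496 CPM in Q92 and Q111 (change 2.63, SE 0.10, limma adjusted p = 9.02e-06). Col6a1, a chain of collagen VI, was at 2.59 to 4.59 CPM in WT and KO. It was 36.0 to 74.2 CPM in Q20, Q50 and Q111 and 1.96 and 2.75 CPM in Q92 (change 2.60, SE 0.13, limma adjusted p = 2.37e-05). Col6a2 (2.02), Col6a3 (1.75), Col1a1 (1.41), Pdgfrb (1.40), Col3a1 (1.20) and Fbln2 (1.18) were also higher, and Thy1 (-1.64) and Col5a2 (-0.79) lower. By line the list median was 1.27 in Q50 and 0.81 in Q20, against -0.17 in Q111 and -0.51 in Q92. Against WT alone 8 were called higher and 1 lower, and against KO alone 12 and 2, with the knock-in libraries shared. The 8 fibroblast markers summed to 983 and 962 CPM in Q50 and 327 and 269 CPM in Q20. In Q92 and Q111 they summed to 14.3 to 31.4 CPM, under the 37.8 to 81.9 CPM of WT and KO.

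Of 6 pluripotency genes tested, Pou5f1, the core pluripotency factor Oct4, and Lin28a, an RNA-binding protein of stem cells, were called higher. Pou5f1 was at 90.1 and 87.4 CPM in Q20 and at most 0.405 CPM in the other 10 libraries, and Lin28a at 70.8 and 69.1 CPM in Q20 and at most 0.405 CPM elsewhere. Both calls were set by Q20: without that line the changes were -0.15 and -0.11 and neither passed. By edgeR Pou5f1 missed the threshold with all lines in (1.35, adjusted p = 0.0847). Of 8 neural crest genes, Tfap2a was higher (0.98) and Pax3, Zic1 (-1.41) and Pax7 (-0.64) lower. Flt1 (0.91) and Cd68 (0.40) were higher among 5 endothelial and microglial genes, with levels of at most 4.73 CPM. The 5 microglia markers Aif1, Cx3cr1, Csf1r, Tyrobp and Itgam did not pass the filter. Of 15 contractile genes, Des (0.69) and Tpm2 (0.60) were higher and Cnn2 (-1.02) lower, and Des was at -0.12 without Q20 and missed the threshold by edgeR (0.49, adjusted p = 0.786). Cnn2 lost its call without the KO line (-0.57) or the Q111 line (-0.72). The call for Zic1 was lost without WT replicate 2, KO replicate 1, Q20 replicate 2 or any library of Q50 or Q92, at -1.08 to -1.43, and without the WT line (-0.64), the Q20 line (-1.20) or the Q92 line (-0.50). That for Cd68 was lost without the WT line (0.26) or the Q92 line (0.24), with quantile normalization (0.30) and with chromosome medians removed (0.25). Whether admixed cells of other types had a part in any of these list counts was not tested.

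Genes of position along the neural axis differed among the lines. Of 21 Hox genes tested, 0 were higher and 12 lower (57.1%; median -0.79). Hoxa9 was at 1.02 and 1.25 CPM in WT and 24.9 and 31.7 CPM in KO. It was 30.6 and 26.9 CPM in Q92 and at most 0.236 CPM in Q20, Q50 and Q111 (change -1.65, SE 0.10, limma adjusted p = 4.19e-05). Hoxa10, picked after its values were seen, had the same order, with 6.17 to 7.49 CPM in KO and Q92 and at most 0.761 CPM elsewhere. Hoxb3 was at 6.38 to 15.9 CPM in WT and KO, 19 and 25.0 CPM in Q92, and at most 4.83 CPM in the other knock-in lines (change -1.50, SE 0.23). Against WT alone 2 Hox genes were called higher and 3 lower (median 0.09), and against KO alone 0 and 11 (median -1.12). The line medians were -0.55 in WT, 0.55 in KO, -0.55 in Q20, -1.36 in Q50, 0.85 in Q92 and -1.79 in Q111. The lower Hox levels of the class thus came from Q50, Q111 and Q20 against the KO line, and Q92 had the highest median of the 6 lines. Without the KO line Hoxa9 turned to 0.23, and without the Q111 line Hoxb3 lost its call (-0.82).

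**Figure D3:**
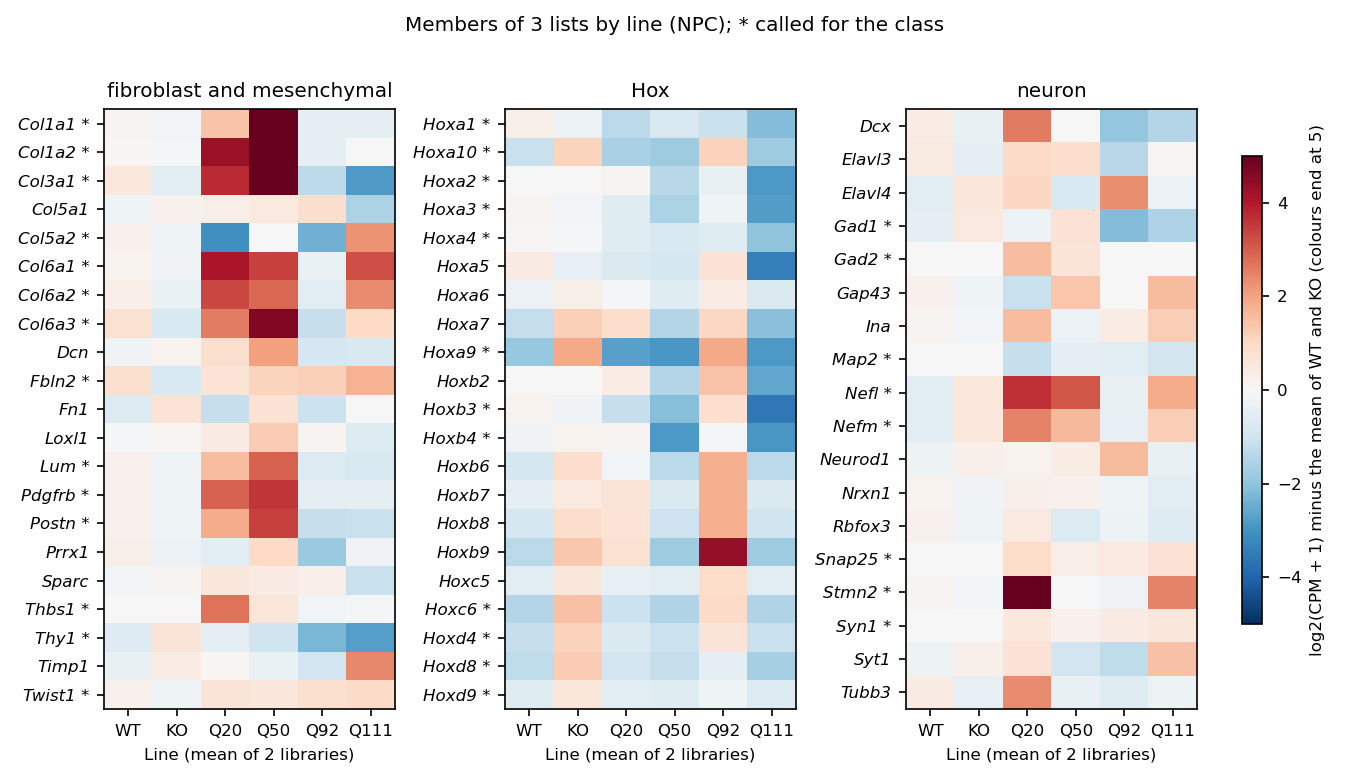
Heat map of fibroblast, Hox and neuron list members (rows) by line (columns), coloured by the line mean of log2(CPM + 1) relative to the mean of WT and KO; an asterisk marks members called in the class comparison. Hox genes are high in KO and Q92 and low in Q111, fibroblast genes are high in Q50 and Q20, and neuron genes in Q20.

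Of 17 brain patterning genes, 5 were higher and 3 lower (47.1%). Otx2, a homeobox factor of forebrain and midbrain, was at 0.245 to 0.591 CPM in WT and KO. It was at 12.1 to 18.5 CPM in Q20 and Q50, 4.95 and 8.72 CPM in Q111 and listed at 0 in both Q92 libraries (change 2.27, SE 0.17, limma adjusted p = 0.000108). By edgeR the change of Otx2 was 1.70 and did not pass (adjusted p = 0.981). Nkx6-1 (1.01), Otx1 (1.00), Six3 (0.70) and Six6 (0.50) were the other higher genes, and Irx1 (-1.49, SE 0.30), Emx2 (-0.95) and Irx2 (-0.55) were lower. Irx1 lost its call without KO replicate 1 (-1.27), the WT line (-0.79) or the Q92 line (-0.87). Q92 had the highest Hox median of the knock-in lines and was the only one of them with Otx2 at 0.

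Imprinted genes, which are read from 1 parental allele, had 7 higher and 2 lower of 24 (37.5%; median 0.22). Snrpn and Impact (0.72) were higher and Igf2r and Cdkn1c lower without overlap of the classes. Igf2r, the receptor that clears IGF2, was at 179 and 333 CPM in WT and 369 and 430 CPM in KO. It was 58.3 and 51.5 CPM in Q20, 33.5 and 48.5 in Q50, 137 and 170 in Q92 and 23.9 in both Q111 libraries (change -2.52, SE 0.18, limma adjusted p = 8.33e-05). Rtl1 (1.43), Peg3 (1.12), Plagl1 (0.56), Asb4 (0.56) and Igf2 (0.44) were also higher. Peg3, a zinc finger gene read from the paternal allele, was at 918 and 1149 CPM in Q20, 298 and 266 CPM in Q50, 503 and 248 CPM in Q92, 142 and 152 CPM in Q111 and 117 to 243 CPM in WT and KO. Q111 thus lay within the control range. The line medians of the list were 0.61 in Q20, 0.31 in Q92 and 0.09 in both Q50 and Q111. Allele-specific expression was not measured.

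Glutamate and GABA receptor genes had 8 higher and 4 lower of 26 (46.2%; median 0.15), and 3 higher and 1 lower were without overlap, against 0.901% and 0.916% of all genes. Grin2a, an NMDA receptor subunit, was at 0.14 to 0.295 CPM in WT and KO. It was 13.9 CPM in both Q92 libraries, 7.17 and 7.90 CPM in Q111 and 0.696 to 2.00 CPM in Q20 and Q50 (change 2.07, SE 0.11, limma adjusted p = 2.73e-05). Grin2c, another NMDA receptor subunit, was at 7.74 to 15.4 CPM in WT and KO and 12.2 and 13.2 CPM in Q50, and at most 1.21 CPM in Q20, Q92 and Q111 (change -2.15, SE 0.16). The kainate receptor gene Grik2 (1.27) and the GABA receptor gene Gabra5 (0.76) were the other higher genes without overlap, and the AMPA receptor gene Gria4 (-1.90) was the lower one.

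In the BMP and TGF-beta list 3 genes were higher and 3 lower of 28 (21.4%; median 0.02). Fst, which encodes follistatin, a secreted inhibitor of activins, was at 0 and 0.356 CPM in WT, 0.305 and 0.653 CPM in KO and 2.45 to 6.21 CPM in the knock-in libraries, median 2.99, without overlap (change 1.79, SE 0.11, limma adjusted p = 4.72e-05). The ligands Bmp2 (0.41) and Bmp4 (0.34) were higher. The ligands Bmp5 (-2.11, SE 0.13) and Bmp7 (-1.28) and the inhibitory Smad6 (-0.67) were lower. Bmp5 was at 34.4 and 24.4 CPM in KO, while WT, at 1.82 and 1.63 CPM, lay within the knock-in range of 0.0677 to 2.92 CPM. Against WT its change was -0.38 (limma adjusted p = 0.239), and against KO -3.84.

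Wnt genes had 4 higher and 4 lower of 23 (34.8%; median -0.00). Lef1, a transcription factor of the pathway, was at 0.0296 to 0.521 CPM in WT and KO, at 4.10 to 6.15 CPM in Q20 and Q111 and at 0.0938 to 1.13 CPM in Q50 and Q92 (change 1.31, SE 0.12). The secreted inhibitor Sfrp1 (1.05), Rspo3 (0.74) and Lgr6 (0.72) were the other higher genes, and the ligand Wnt4 (-1.19, SE 0.20), Lgr5 (-0.88), Dkk3 (-0.80) and the target gene Axin2 (-0.57) the lower ones. Wnt4 lost its call without the KO line (-0.81). In EGF and FGF receptor signalling, the pathways fed by the culture medium, 6 were higher and 1 lower of 30 (23.3%; median 0.30). Spred2, an inhibitor of Ras and ERK signalling, was at 7.11 to 12.4 CPM in WT and KO and at 15.9 to 46.7 CPM, median 20.1, in the knock-in libraries (change 1.12, SE 0.21, limma adjusted p = 0.0101), and lost its call without the KO line (1.16). Fgf13 (1.02), Fgf15 (0.77), Fgfr4 (0.53), Btc (0.41) and Fgf5 (0.32) were also higher, and the ERK target gene Etv1 was lower (-0.47).

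Laminin and integrin genes, which bear on attachment to the laminin-coated dish, had 5 higher and 4 lower of 24 (37.5%; median 0.24). Itga8 (1.71, SE 0.35), Itga7 (1.00), Itga3 (0.75), Lama2 (0.39) and Itgb5 (0.35) were higher, and Lama4 (-1.23, SE 0.17), Itga6 (-0.53), Lama5 (-0.44) and Lamc1 (-0.43) lower. Lama4 was at 21.1 to 31.8 CPM in WT and KO, 41.3 CPM in both Q111 libraries and 3.19 to 15.6 CPM in the other knock-in lines. Itga8 lost its call without the WT line (1.35) or the Q111 line (1.23) and by edgeR with RLE scaling (1.81, adjusted p = 0.0503). Clustered protocadherins, which share exons within a cluster, had 0 higher and 2 lower of 36 (5.56%): Pcdhga10 (-1.80) and Pcdhga8 (-1.56, without overlap), both uncertain because their reads can be shared. The call for Pcdhga10 was lost without any library other than WT replicate 2 or KO replicate 2 (-1.16 to -1.98), without the WT, Q20, Q50 or Q111 line (-1.10 to -1.94) and with chromosome medians removed (-1.79). MHC class I and interferon genes had 4 higher and 1 lower of 23 (21.7%). H2-D1 was at 4.74 to 7.17 CPM in WT and KO and 6.68 to 18.1 CPM in the knock-in libraries (0.75, SE 0.11), and H2-K1 had a change of 0.66 (SE 0.14). Both were highest in Q20 and Q111, and reads of these near-identical genes can be shared. Ifit1 (0.63) and Psmb8 (0.39) were the other higher genes and Ifi35 (-0.59) the lower one. Of 9 germline genes, Nxf3 (2.26) and Tex15 (1.16) were higher and Stag3 (-0.90) and Xlr4a (-0.57) lower; Nxf3 was at 132 and 136 CPM in Q20 and at most 1.49 CPM elsewhere. H2-K1 lost its call without KO replicate 1 (0.55), the Q20 line (0.59) or the Q111 line (0.52). Tex15 did so without the WT line (1.01), the Q50 line (0.83) or the Q111 line (1.07), and without WT replicate 1, KO replicate 1, Q20 replicate 2, Q50 replicate 1 or Q111 replicate 2 (0.92 to 1.15).

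Of 28 genes for huntingtin interactors, 3 were higher and 1 lower (14.3%; median 0.03). Hap1, the huntingtin-associated protein of vesicle transport, was at 24.3 and 23.3 CPM in WT, 12.2 and 22.7 CPM in KO and 30.4 to 53.2 CPM, median 35.3, in the knock-in libraries, without overlap (change 0.87, SE 0.16, limma adjusted p = 0.00896). Kif5a, a neuronal kinesin, was at 10.3 to 21.8 CPM in WT and KO, 31.5 and 27.6 CPM in Q20 and 2.82 to 7.14 CPM in the other knock-in lines (change -1.12, SE 0.18). Hap1 lost its call without the Q20 line (0.71) and Kif5a without the Q111 line (-0.78). Rasgrp2 (0.71) and Sh3gl3 (0.56) were the other higher genes. Of 57 splicing regulators, 2 were higher and 3 lower (8.77%; median 0.01): Mbnl3 (0.92) and Celf4 (0.84) against Khdrbs2 (-1.50), Sf3b1 (-0.55) and Ptbp3 (-0.44). Khdrbs2 was at 22 and 21.5 CPM in KO and at most 5.47 CPM in every other library, and turned to 0.48 without the KO line.

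Of 30 cell cycle genes, limma called 0 (0 at an unadjusted p under 0.05, and 0 by edgeR on the recovered reads). By the F test of the same fit, 0 passed for a difference among the knock-in lines. The median change of the list was 0.25. Top2a, a topoisomerase of dividing cells, was at 569 to 1675 CPM in WT and KO and 780 to 2199 CPM in the knock-in libraries (change 0.26, SE 0.30, limma adjusted p = 0.628). The SE was large because the 2 libraries of WT and of KO differed, at 569 and 1459 CPM and at 652 and 1675 CPM. The error of the F test among the knock-in lines also held this spread. Top2a was at 780 and 803 CPM in Q20, 824 and 902 in Q50, 1299 and 1221 in Q92, and 2164 and 2199 in Q111. The count of 0 from the F test therefore does not show alike levels among the knock-in lines. Of 23 cholesterol synthesis genes limma called 0 (2 at an unadjusted p under 0.05, and 0 by edgeR; median 0.18), and Hmgcs1, an early enzyme of the pathway, had a change of -0.02 (SE 0.19). A missed threshold does not show equal levels. Of 23 glycolysis and hypoxia genes, the glucose transporter gene Slc2a1 (1.27, SE 0.27) and Pfkp (1.19, SE 0.17) were higher and Ndrg1 (-0.93) lower, 3 calls in all and a share close to that of all genes. Of 18 p53 target genes, Ccng1 was higher without overlap, at 138 to 244 CPM against 247 to 956 CPM (change 1.24, SE 0.31), with a gap of 0.02, and the death receptor gene Fas was higher (0.65), a share of 11.1%. Of 22 ATF4 and endoplasmic reticulum stress genes, Phgdh, the first enzyme of serine synthesis, alone was called (4.55%; -0.87, SE 0.21), at 440 to 1029 CPM against 309 to 463 CPM. The call for Phgdh was lost without WT replicate 1, Q50 replicate 1 or any library of Q20, Q92 or Q111 (-0.77 to -0.89), and without the WT, Q20, Q50 or Q111 line (-0.78 to -0.92). That for Ccng1 was lost without WT replicate 1, either KO or Q20 library, Q50 replicate 1, Q92 replicate 2 or Q111 replicate 2 (1.04 to 1.34), without the WT, KO, Q50 or Q111 line (1.07 to 1.34), and with chromosome medians removed (1.09). Slc2a1 lost its call without KO replicate 1 (1.15) or the Q20 line (0.83).

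Of 77 oxidative phosphorylation genes 4 were lower and 0 higher (5.19%), and of 76 cytosolic ribosomal protein genes 3 were lower and 0 higher (3.95%). All 7 lie on chromosome 1, among them Cox5b (-0.41), Ndufa10 (-0.35), Ndufs1 (-0.27), Rpl37a (-0.52), Rpl31 (-0.51) and Rpl7 (-0.47). With the chromosome medians taken off, Cox5b, Rpl37a and Rpl31 lost their call. Cox5b was then at -0.09 (limma adjusted p = 0.587), Rpl37a at -0.20 (0.235) and Rpl31 at -0.19 (0.266). Cox5b had also lost its call without KO replicate 1 (-0.37), the KO line (-0.36) or the Q92 line (-0.31), and Rpl31 without the KO line (-0.40). Ribosomal protein genes have many near-identical copies, so their counts are uncertain.

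The genes of chromosome 1 were lower in the class as a group. Over its 627 genes whose mean reached 5 CPM, the median change was -0.37 and 84.8% of changes were below 0. Of 776 genes tested there, 271 were called (34.9%), 54 higher and 217 lower. The median deviation of these genes from their median over the 12 libraries was 0.17 and 0.12 in WT and 0.27 and 0.29 in KO. It was 0.21 and 0.22 in Q50, inside the range of the controls, and -0.24 and -0.23 in Q20, -0.17 and -0.22 in Q92, and -0.20 and -0.18 in Q111. The shift of the class was thus one of Q20, Q92 and Q111. It ran along the whole chromosome, with medians of -0.26 to -0.44 in 10 bins of 20 Mb. Off chromosome 1, 956 genes were called higher and 506 lower, and 106 and 72 of these were without overlap.

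**Figure D4:**
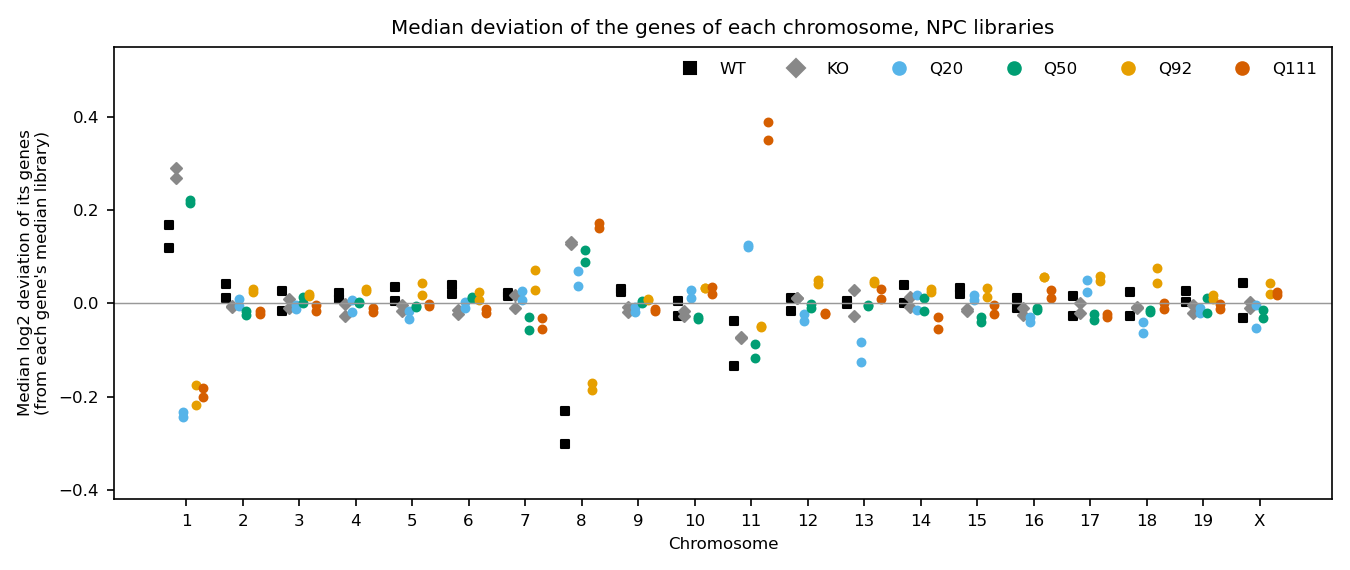
Median deviation of log2(CPM + 1) (vertical axis) from each gene's median over the 12 NPC libraries, by chromosome (horizontal axis), for genes whose mean reached 5 CPM, with 1 point per library coloured by line. On chromosome 1, Q20, Q92 and Q111 lie between -0.24 and -0.17 and the WT, KO and Q50 libraries between 0.12 and 0.29; chromosomes 8 and 11 also spread by line.

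Chromosomes 8 and 11 split the lines in other ways. On chromosome 8 the medians were -0.30 and -0.23 in WT and -0.17 and -0.19 in Q92, and 0.04 to 0.17 in the other lines, so the classes overlapped (median change 0.09). On chromosome 11 they were 0.39 and 0.35 in Q111, 0.12 in both Q20 libraries and -0.13 to -0.04 in the rest, and 123 genes were called higher and 23 lower of 1069 tested (13.7%, near the share of all genes; median change 0.18). The mESC libraries of the same lines showed like medians on chromosome 1. These were 0.05 and 0.00 in WT, 0.38 and 0.33 in KO, 0.23 and 0.20 in Q50, and -0.16 to -0.10 in Q20, Q92 and Q111. On chromosome 8 mESC WT had -0.39 and -0.26, while mESC Q92, at 0.00 and 0.03, lacked the low median of its NPC. On chromosome 11 mESC Q20 had 0.16 and 0.29 and Q111 0.16 and 0.35. Copy number of chromosomes was not measured, and its part in these values was not tested.

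Genes of the Y chromosome, picked after their values were seen, differed by line and not by class. Uty, Ddx3y and Eif2s3y were at 0 to 0.0706 CPM in both Q50 NPC libraries and at 26.9 to 98.6 CPM in the other 10. In the mESC libraries of Q50 they were at 12.9 to 36.0 CPM. Kdm5d was at 43.6 and 46.8 CPM in Q111 NPC and under 1 CPM in the other NPC libraries. The class changes called by limma for Uty (-1.23), Ddx3y (-1.38), Eif2s3y (-1.39) and Kdm5d (0.96) each went with the values of 1 line.

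Against WT alone, 992 genes (7.51%) were called, 646 higher (4.89%) and 346 lower (2.62%), and against KO alone 1338 (10.1%), 762 higher (5.77%) and 576 lower (4.36%). Among genes whose mean reached 5 CPM the balance turned against KO, with 296 higher and 376 lower, and was 229 and 223 against WT. Both comparisons use the same knock-in libraries. Mageb16 had changes of -5.01 and -3.88, Pak1 2.10 and 2.52, Adgrv1 1.55 and 2.71, Igf2r -2.17 and -2.87, and Reln 3.32 and 3.22, against WT and KO in that order. These 5 genes passed the limma test against each control. Hoxa9 (0.23 and -3.54), Khdrbs2 (0.48 and -3.49) and Bmp5 (-0.38 and -3.84) passed against KO alone. Neither Hap1 (0.63, limma adjusted p = 0.109) nor Phgdh (-0.90, limma adjusted p = 0.0934) passed against WT.

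Each knock-in line was also set against the mean of WT and KO, and these comparisons share their controls. Q20 had 2583 genes called (19.6%), Q50 1201 (9.09%), Q92 1456 (11.0%) and Q111 2763 (20.9%). The counts did not follow repeat length, with the shortest and the longest repeat at the top. Q20 had more higher than lower calls, 1596 (12.1%) against 987 (7.47%), and Q92 more lower than higher, 881 (6.67%) against 575 (4.35%). Q50 had 759 higher (5.75%) and 442 lower (3.35%), and Q111 1359 higher (10.3%) and 1404 lower (10.6%). Among genes whose mean reached 5 CPM the balance of Q20 turned, with 653 higher and 762 lower.

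The same class comparison in mESC called 155 of 13916 genes (1.11%), 110 higher (0.79%) and 45 lower (0.323%). With 1 mean per line it called 36 (0.259%), 34 higher (0.244%) and 2 lower (0.0144%). The mESC replicate numbers deviated together across lines, and with the replicate number as a block 2121 genes were called (15.2%), 1069 higher and 1052 lower. Of the 226 genes separated and called in NPC, 193 were tested in mESC. Of these, 137 had the same direction in mESC, 4 were called in the same direction, and 7 were without overlap in the same direction. Over all genes tested in mESC, 3.41% were without overlap, 288 higher (2.07%) and 186 lower (1.34%). The share of all genes with the same direction in both cell types is not given here. With the block 38 of the 193 genes were called in the same direction and 7 in the opposite one. The change in NPC minus that in mESC was tested in 12321 genes and passed in 403 (3.27%), 202 higher (1.64%) and 201 lower (1.63%), or in 1152 with the block. It passed in 54 of the 193 genes (28.0%), and with the block in 88 (45.6%). These 193 had been chosen for a large difference in NPC, so their share above the background is no finding about them.

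**Figure D5:**
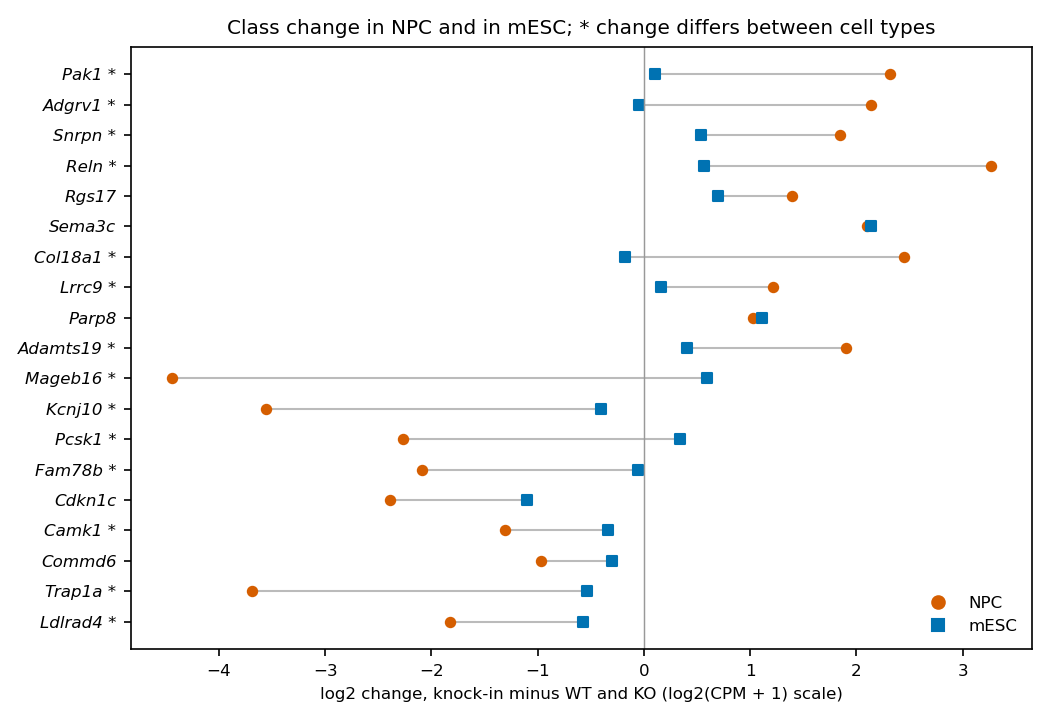
Class change (knock-in minus WT and KO, log2 scale, horizontal axis) for 19 of the 24 large-gap genes (rows), those tested in both cell types, with a circle for NPC and a square for mESC; an asterisk marks genes whose change differed between the cell types. Mageb16 lies at -4.44 in NPC and 0.59 in mESC, and Parp8 at 1.03 and 1.11.

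Mageb16 was at 41.1 and 9.51 CPM in mESC WT, 12.7 and 20.7 CPM in mESC KO and 11.0 to 46.2 CPM in the mESC knock-in libraries, with overlap. Its class change was 0.59 in mESC (limma adjusted p = 0.65) against -4.44 in NPC, a difference of -5.04 (SE 0.55, limma adjusted p = 8.49e-05). Every mESC line thus expressed the gene, and the 4 knock-in lines were without it in NPC alone. Trap1a was at 59.9 to 197 CPM in all 12 mESC libraries, and its mESC change of -0.54 did not pass. Pak1 was at 31.8 to 43.0 CPM in mESC WT and KO and at 34.2 to 47.9 CPM in the knock-in libraries, with a change of 0.10 against 2.31 in NPC. Adgrv1 (-0.05 in mESC) and Igf2r (-0.03 in mESC) likewise differed between the cell types, with differences of 2.18 and -2.50. Parp8 was higher in both cell types, at 0.743 to 1.68 CPM against 2.13 to 6.72 CPM in mESC (change 1.11, limma adjusted p = 0.0436). The fibroblast gene Col1a2 was at 0.808 to 2.60 CPM in mESC WT and KO and at 17.5 to 31.4 CPM in all 8 mESC knock-in libraries (change 3.37, limma adjusted p = 0.000862). The 7 fibroblast markers present in the mESC table summed to 5.62 to 11.7 CPM in WT and KO and to 40.3 to 69.4 CPM in the knock-in libraries, and their part in the mESC changes was not tested. In NPC, Col1a2 was above the controls in Q20 and Q50 and not in Q92 and Q111.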

How the data were processed

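Total RNA of 24 libraries was sequenced on an Illumina NextSeq 500 as paired-end reads of 75 bases, per the labels' protocols. The submitters' processing notes list CASAVA 1.8, STAR and the build GRCm38.p6 without a role or order; how reads were assigned to genes, and whether by strand, is not given in the sources used here. The values the authors deposited are a normalised CPM signal in 1 table per cell type. Every column had 1 step of which 100% of its values were whole multiples (tolerance 0.05 reads), which gave back the reads. The column totals of NPC ran from 900342 to 1056443, and mESC libraries held 58546211 to 81502284 recovered reads. The totals limit counting error alone. The NPC table held 16024 genes, of which 99.8% matched GENCODE M21 on GRCm38; positions come from that match.

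Genes with at least 1 CPM in at least 2 NPC libraries were tested as log2(CPM + 1), which understates changes of low values. The main test was limma 3.58.1 in R 4.3.3 with a variance trend and the means of the 6 lines; tests were two-sided, with Benjamini-Hochberg adjustment over all genes tested. The fits were tested on simulated data in which 200 genes were changed. A second fit took 1 mean per line. Alternatives used edgeR 4.0.16 on the recovered reads, DESeq2 1.42.0 size factors, other pseudocounts and filters, and the fits named in the closing section. Levels were not compared between the tables.

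The mESC replicate numbers pair the samples: the difference between replicates correlated by 0.25 to 0.547 over the 15 pairs of lines, all above 0.1. Blocked values are printed where they change a count by more than the limit of 1.5 times.

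Named were Htt, the 12 genes per direction with the largest gap among called protein-coding genes of more than 1 exon whose mean reached 5 CPM in the higher class, the 2 called members of each list with the largest change (or, in lists with none, the member with the highest mean), the NPC markers, and the interaction among these. Snurf, Peg3, Map2, Col3a1, Col1a1, Hoxa10, the Y-linked genes, the other list members given with a change alone, and genes with a changed call when a library was left out were picked after their values were seen. Some genes that this rule names are not reported here. The gene lists and the genes in them were chosen with earlier results of these data known.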

Additional observations from a re-analysis of the deposited data

Results flagged for a closer look

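In 32 of the named genes the class change in NPC differed from that in mESC by limma (adjusted p under 0.05 over 12321 genes tested in both). The values below are the NPC change minus the mESC change on the log2 scale, and all 32 also passed with the replicate block. Among the large-gap genes that were higher in NPC, the difference was 2.21 for Pak1, 2.18 for Adgrv1, 1.31 for Snrpn, 2.70 for Reln, 2.63 for Col18a1, 1.06 for Lrrc9 and 1.50 for Adamts19. Among those lower in NPC it was -5.04 for Mageb16, -3.15 for Kcnj10, -2.61 for Pcsk1, -2.04 for Fam78b, -0.97 for Camk1, -3.15 for Trap1a and -1.26 for Ldlrad4. Mageb16, Kcnj10 and Pcsk1 were at similar levels in both mESC classes: Kcnj10 at 1.29 to 3.42 CPM in mESC WT and KO and 0.0976 to 3.25 CPM in the knock-in libraries, and Pcsk1 at 1.65 to 3.93 CPM and 1.15 to 7.58 CPM.

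Among list members the difference was -4.09 for Tnc, 2.59 for Stmn2, 1.94 for Gfap, -2.36 for Cspg4, 1.53 for Col6a1, -2.34 for Cnn2 and 1.25 for Des. It was 1.93 for Pou5f1, 1.36 for Lin28a, -2.50 for Igf2r, 1.48 for Fst, -2.46 for Wnt4, 1.68 for Itga8, -1.81 for Lama4, -1.93 for Grin2c, 2.20 for Grin2a and 1.31 for Slc2a1. Among the NPC markers it was -2.24 for Nes. Nes was higher in knock-in than in control mESC, at 41.5 to 158 CPM against 8.42 to 26.0 CPM, and had no called class change in NPC. Igf2r was at 193 to 312 CPM in mESC WT and KO and 172 to 308 CPM in the mESC knock-in libraries.

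Several of these genes passed in NPC through 1 or 2 lines. Pou5f1, Lin28a and Des were high in Q20 NPC alone and Stmn2 mainly there. With 1 mean per line, 31 of the 32 no longer passed, and Mageb16 did (limma adjusted p = 0.00228). Leaving out a single library took at most 6 of the 32 past the threshold, and without KO replicate 1 of NPC it was 6.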

How the results depend on the processing

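The class count of 1733 stayed within 1.5 times under other pseudocounts, scalings, no filter, edgeR (1478 with TMM, 679 higher and 799 lower) and removal of chromosome medians (1416, chosen after seeing the data; 943 higher and 473 lower). It was 910 at a mean CPM of at least 5 (408 higher and 502 lower), 1105 without the KO line, 1039 without the Q20 line, 656 with array weights, 24 in a fit of 2 classes of libraries, 1 with line as a random block and 0 with 1 mean per line; leaving out a library gave 1196 to 3475. The main error treats the lines as fixed, and the last 3 fits take the spread between lines into the error. Of the 226 genes separated and called, 216 were still called by edgeR, 186 without chromosome medians, 168 without the KO line, 132 with array weights, 24 in the 2-class fit and 1 with the random block. The 24 large-gap genes kept their direction in every alternative in which they were tested, which was 20 of them at a mean CPM of at least 5. They were chosen by their gap in these same libraries, so a kept direction is no check of them. Of the 24, 23 were called with array weights, 14 in the 2-class fit, 1 with the random block and 0 with 1 mean per line. With 1 mean per line, leaving out the Q92 line gave 1 call.

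At a mean CPM of at least 5 the counts were 452 against WT (229 higher and 223 lower), 672 against KO (296 and 376), 1415 for Q20 (653 and 762), 638 for Q50, 88 for mESC and 146 for the interaction, for which no filter gave 707. With array weights they were 104 against WT, 630 against KO and 9631 among knock-in lines. With 1 mean per line mESC had 36 and the interaction 1. Leaving out a library gave 590 to 3305 against WT, 600 to 2050 against KO, 1269 to 4044 for Q20, 464 to 1922 for Q50, 346 to 3663 for Q92, 789 to 5265 for Q111, 3379 to 7482 among knock-in lines, 0 to 0 with 1 mean per line, 15 to 91 for mESC and 248 to 637 for the interaction. The 240 separated genes became 257 to 460 without a library, 1046 without the WT line, 689 without KO, 483 without Q20, 672 without Q50 and 667 without Q92, where fewer libraries must be separated. For Htt the change was 0.0592 without the KO line (limma adjusted p = 0.785), 0.35 without Q50 (0.0517), 0.36 without Q92 (0.0507), and 0.40 with array weights (0.0789), in the 2-class fit (0.441), with the random block (0.9995) and with 1 mean per line (0.9991); without a library it was 0.30 to 0.49. Unless stated, the cause was not tested.

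The replicate block in mESC gave 2121 calls and the interaction 1152. NPC numbers did not pair by the rule that every pair of lines correlates above 0.1. Only 3 of 15 did, WT with KO (0.467), WT with Q50 (0.17) and KO with Q50 (0.106), so the replicates of both control lines deviated together, and the block gave 1742 class calls; among named genes it changed the call of Pcdhga10 alone.

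Over all alternatives, the other named genes gave 2413 values with the same call, 372 that lost it, 9 that gained it and 37 of the opposite sign. Without the Q20 line Des was -0.12, Pou5f1 -0.15, Lin28a -0.11, Hmgcs1 0.25 and Sox1 -0.35. Without the KO line Hoxa9 was 0.23, Khdrbs2 0.48, Msi1 -0.11 and Sox9 -0.16. Without the WT line Hmgcs1 was 0.18, Sox1 -1.17 and Hes5 0.18; without Q92 Nes was -0.23 and Hes5 0.38; without Q111 Top2a was -0.0379 and Nes -0.0165. Leaving out a library changed the sign of 6 genes, with ranges of -0.0785 to 0.60 for Top2a, -0.28 to 0.25 for Hmgcs1, -0.27 to 0.34 for Nes, -0.44 to 0.65 for Sox1, -0.0205 to 0.28 for Sox9 and -1.21 to 0.34 for Hes5. Nes was -0.0411 by edgeR with TMM and -0.0405 with RLE. Hmgcs1 was 0.0226 with quantile normalization, and with chromosome medians removed Hmgcs1 was 0.0068 and Sox9 -0.0256. With 2 libraries a line, levels of a few reads and differences below the spread of WT and KO replicates were not detectable.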
